A study of Mus musculus with 12 samples.

Results

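The islets of mice whose beta cells had been partly ablated with diphtheria toxin (DT) were compared between day 5 and day 1 after the ablation (5 DPA and 1 DPA). The libraries were chosen by their titles, the 3 titled DT 5 DPA against the 3 titled DT 1 DPA, which makes 6 of the 12 libraries in the table of raw counts, and the comparison was described across all expressed genes, 17294 of the 48709 in that table. Every library was made from pancreatic islets of female mice with the genotype label NSG RIP-DTR Htz. The other 6 libraries were 3 from mice without treatment (CTRL) and 3 from DT-treated mice at 3 DPA. They entered the fit, and their levels are given only as a frame for the 2 days compared. In this genotype a rat insulin promoter drives the diphtheria toxin receptor, so that the toxin, which stops protein synthesis by modifying elongation factor 2, acts on insulin-expressing cells. The untreated mice carried the receptor as well and differed from the DT groups in the toxin. NSG mice lack mature T, B and natural killer cells and keep myeloid cells, which limits the immune response that such islets can show. No label says whether the 3 libraries of a group came from separate animals, so the p-values measure the spread between these libraries only.

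Islets consist mostly of insulin-secreting beta cells, with glucagon-secreting alpha cells, somatostatin-secreting delta cells, PP cells, and a minority of macrophages, endothelial cells, pericytes, fibroblasts and Schwann cells. Beta cells divide rarely in adult mice, and the title of the series asks about a transient compensatory proliferation after their partial loss. When dead cells were cleared by phagocytes or surviving cells entered the cell cycle in these islets was not tested.

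Library totals were 29867083 to 38942407 counts at 1 DPA and 35354631 to 50012558 at 5 DPA. Levels are given as CPM, counts scaled to a library total of 1000000, in the order of replicates 1, 2 and 3. The insulin transcripts Ins1 and Ins2 took 14.2%, 13.1% and 10.4% of the counts at 1 DPA and 15.2%, 19.7% and 14.7% at 5 DPA. The shares of the 2 days did not overlap, and the exact two-sided permutation test gave p = 0.1, the smallest value that 3 libraries against 3 allow. A list of 17 acinar genes, which mark exocrine tissue carried along with islets, took 5.06%, 2.64% and 0.603% at 1 DPA and 0.918%, 1.51% and 3.12% at 5 DPA. The acinar share varied within each day more than between the days (exact two-sided permutation test, p = 0.7), and its difference turned from -0.92 to 0.229 percentage points without replicate 1 of 1 DPA. In contrast, the summed level of 14 macrophage markers was 115 to 141 CPM at 1 DPA and 702 to 974 CPM at 5 DPA, and that of 14 stromal markers was 880.1 to 1009 CPM and 3346 to 5399.7 CPM. Both sums separated the days completely, so the day and the content of these cells cannot be told apart. The mean log2 level of each set of markers in a library is called its macrophage or stromal score, and beside several groups the count of calls is given again from a fit adjusted for a score. The effect of a score in such a fit is set by its spread within groups, which was widest in CTRL. In bulk islets, fewer cells of a type and less RNA per cell of that type cannot be told apart either.

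Most of the expressed genes differed between the days. At a Benjamini-Hochberg adjusted p under 0.05 in edgeR's quasi-likelihood test, 9703 genes were called, 56.1% of those tested. Of these, 4551 (26.3%) were higher at 5 DPA and 5152 (29.8%) were lower. These shares are the measure for every count of calls in a gene list below. The changes at 5 DPA were at least 2-fold for 1740 called genes upward and 1323 downward, and at least 4-fold for 664 and 322. The median log2 fold change, always given as 5 DPA over 1 DPA, was 0.01 over all genes tested, 0.77 over the genes called higher and -0.64 over those called lower. Every 5 DPA library lay above every 1 DPA library for 4464 (98.1%) of the genes called higher, and below every 1 DPA library for 5078 (98.6%) of those called lower. A lack of overlap, given below for single genes, is therefore the rule for called genes and adds little to a call. Over all genes tested, called or not, 32.2% and 33.8% had no overlap in these directions. Scaling to library sizes without the 50 most abundant genes moved the median of all genes to 0.17, a shift of 0.15, and the split to 6111 higher and 3933 lower, so that 60.8% of calls were higher in place of 46.9%. The small changes given here are therefore relative to that choice of scale.

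**Figure D1:**
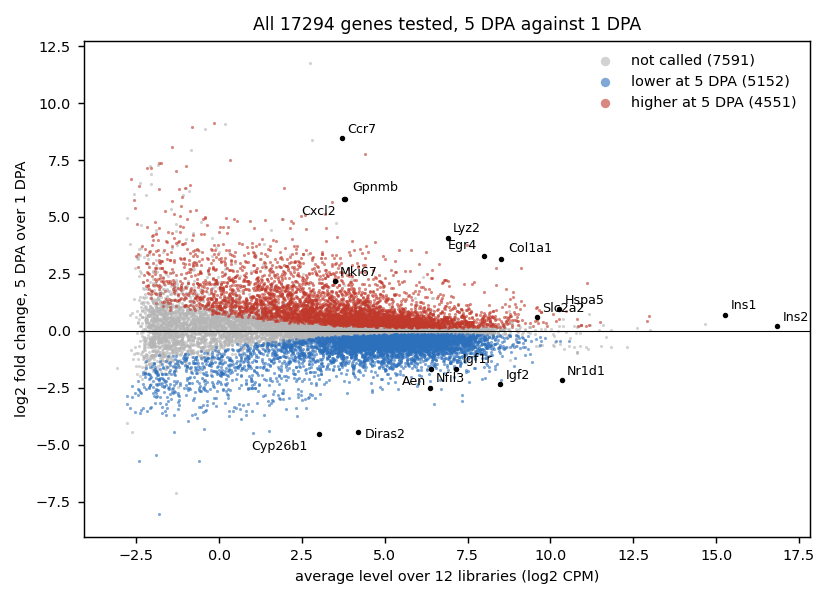
Each point is 1 of the 17294 genes tested, placed by its average level over the 12 libraries (horizontal axis, log2 CPM) and its log2 fold change at 5 DPA over 1 DPA (vertical axis). Red points are the 4551 genes called higher, blue the 5152 called lower and grey the 7591 not called, and the labels mark genes described in the text, such as Ccr7 at 8.46 and Nr1d1 at -2.16.

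The levels without ablation lay closer to day 5 than to day 1 for most of these genes. The CTRL mean was nearer to the 5 DPA mean for 76.7% of the genes called higher and for 89.7% of those called lower. For 2453 genes called lower (47.6%) the CTRL mean was below both days, with the 5 DPA mean between CTRL and 1 DPA. For 1243 genes called higher (27.3%) the CTRL mean was above both days. At 3 DPA the mean lay between the 2 days for 80.3% of the genes called higher and 77.5% of those called lower. These are positions of means, without a test. Among 15755 protein-coding genes 28% were called higher and 30.8% lower, whereas among 1331 long non-coding RNAs 7.44% were called higher and 19.3% lower.

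**Figure D2:**
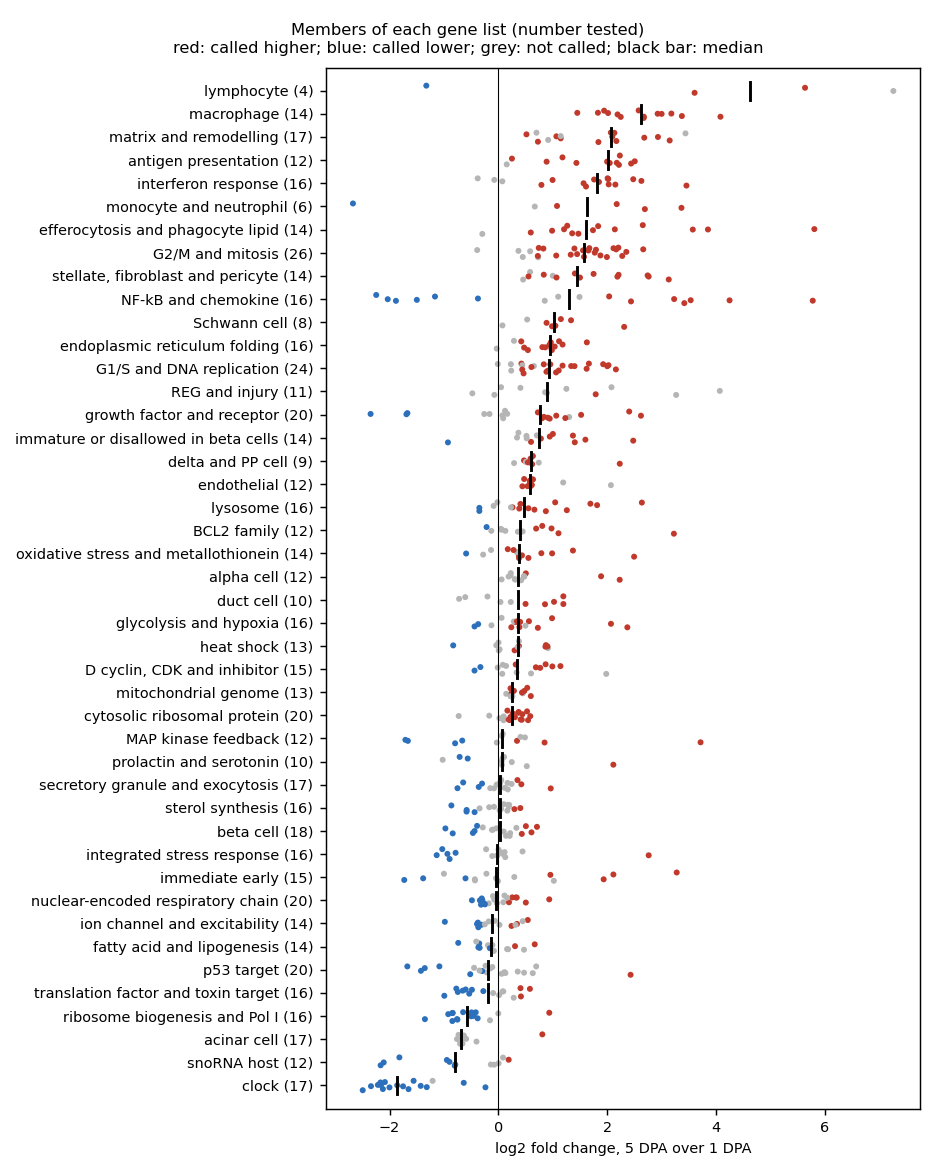
Each row is 1 of the 44 gene lists, each point a member at its log2 fold change at 5 DPA over 1 DPA, coloured by whether it was called higher (red), lower (blue) or not (grey), and the black bar is the median of the members tested. The lists run from clock genes at the bottom (median -1.86) through those near 0 to macrophage markers near the top (median 2.63).

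Growth factor signalling differed first of all in an insulin-like growth factor and 2 receptors. Igf2, a growth factor of the insulin family, was at 599, 765 and 1231 CPM at 1 DPA and 157, 189 and 163 CPM at 5 DPA (log2 fold change -2.35 ± 0.33 (SE), adjusted p = 0.000247), and the CTRL mean was 12.7 CPM. Replicate 3 was the highest of 1 DPA, all 3 libraries of 5 DPA were below all 3 of 1 DPA, and all of these were above CTRL. The antisense transcript Igf2os shares this locus, and whether the counting used strand is not given in the sources used here. Igf1r, the receptor that binds both insulin-like growth factors, was at 303, 323 and 232 CPM at 1 DPA and 87.99, 86.02 and 95.1 CPM at 5 DPA (log2 fold change -1.67 ± 0.13 (SE), adjusted p = 2.2e-06). The 5 DPA libraries lay at the CTRL mean of 96.4 CPM, and the 1 DPA libraries were far above it. Egfr, the receptor of epidermal growth factor and its relatives, was at 69.3, 94.1 and 62.2 CPM at 1 DPA and 21.7, 22.9 and 25.4 CPM at 5 DPA (log2 fold change -1.69 ± 0.13 (SE), adjusted p = 1.6e-06), again without overlap and with a CTRL mean of 22.4 CPM.

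These 3 were the called falls among the 20 growth factor and receptor genes tested. A further 10 were called higher, where 26.3% of all genes were. In the fit adjusted for the macrophage score edgeR called 0 higher (4 at an unadjusted p under 0.05), in that for the stromal score 5, and the 3 falls were called in both. The median of the list was 0.76. The members that rose included ligands, a binding protein and receptors. Btc, the EGF receptor ligand betacellulin, was at 0.964, 0.976 and 1.11 CPM at 1 DPA and 9.69, 4.48 and 4.58 CPM at 5 DPA (log2 fold change 2.62 ± 0.38 (SE), adjusted p = 0.000151). Hgf, hepatocyte growth factor, was at 1.65, 1.64 and 1.49 CPM at 1 DPA and 4.598, 4.64 and 4.497 CPM at 5 DPA (log2 fold change 1.52 ± 0.20 (SE), adjusted p = 6.03e-05). All libraries of 5 DPA were above all of 1 DPA for both, and the 3 values of Hgf within a day were nearly equal. The platelet-derived growth factor Pdgfb, the insulin-like growth factor binding protein Igfbp7, the ligand Tgfa and the receptors Erbb2 and Erbb3 rose by 0.80, 1.06, 0.73, 1.23 and 0.84 on the log2 scale. Hbegf, which encodes the mouse homologue of the diphtheria toxin receptor, was not called (log2 fold change 0.07 ± 0.40 (SE), adjusted p = 0.888), with 12.1, 9.08 and 9.32 CPM at 1 DPA and 10.2, 11.8 and 10.04 CPM at 5 DPA. Whether reads of the transgene were counted there was not tested.

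Phosphatases and adaptors that dampen the MAP kinase pathway included large single falls. Dusp8, a phosphatase of stress-activated kinases, was at 538, 556 and 601 CPM at 1 DPA and 171, 182 and 182 CPM at 5 DPA (log2 fold change -1.66 ± 0.24 (SE), adjusted p = 0.000229). Dusp4, a nuclear phosphatase of ERK, was at 90.6, 75.98 and 143 CPM at 1 DPA and 30.6, 33.1 and 30.9 CPM at 5 DPA (log2 fold change -1.71 ± 0.31 (SE), adjusted p = 0.00132). Both were higher in every 1 DPA library than in any of 5 DPA, and the CTRL means were 31.04 and 5.45 CPM. Dusp10 (-0.80) and Spred2 (-0.67) also fell, which makes 4 of the 12 genes of this list lower, near the 29.8% of all genes. With 3 called higher (1 to 5 when a library was left out), the rises were near the 26.3% of all genes. Spry1, an inhibitor of receptor tyrosine kinase signalling, rose (log2 fold change 0.85 ± 0.18 (SE), adjusted p = 0.00206). The ERK-induced phosphatases Dusp6 (0.49), Dusp5 (-0.03) and Dusp1 (0.08) were not called.

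Genes of the circadian clock were high at 1 DPA and lower at 5 DPA. The clock is a feedback loop in which Arntl and Clock activate genes through E-boxes, Per and Cry proteins repress them, and Nr1d1 and Nr1d2 repress Arntl. Of 17 clock genes, 16 were called lower, with a median log2 fold change of -1.86 against 0.01 over all genes, where 29.8% were called lower. Nfil3, a repressor of genes with D-boxes, was at 207, 198 and 253 CPM at 1 DPA and 31.6, 39.7 and 45.5 CPM at 5 DPA (log2 fold change -2.49 ± 0.17 (SE), adjusted p = 1.26e-06). Arntl was at 80.8, 75.1 and 97.4 CPM at 1 DPA and 20.4, 25.4 and 23.9 CPM at 5 DPA (log2 fold change -1.86 ± 0.11 (SE), adjusted p = 3.81e-07). In both, the libraries of 1 DPA were close to each other and every one was above every library of 5 DPA. The CTRL means were 21.2 and 21.97 CPM.

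The repressors of the loop fell together with the activator. Per1 (-2.17), Per2 (-2.003), Per3 (-1.43), Cry1 (-2.34) and Cry2 (-2.09) fell. Per1 was at 682, 689 and 988 CPM at 1 DPA and 157, 173 and 195 CPM at 5 DPA, and Cry1 at 113, 109.97 and 224 CPM at 1 DPA and 29.9, 25.8 and 32.3 CPM at 5 DPA. The nuclear receptor Nr1d1 was at 1881, 1595 and 4389.6 CPM at 1 DPA and 526, 586 and 649 CPM at 5 DPA (log2 fold change -2.16 ± 0.44 (SE), adjusted p = 0.00256), with a CTRL mean of 80.3 CPM. Replicate 3 of 1 DPA was well above the other libraries of that day for Nr1d1, and it was the highest 1 DPA library for Per1, Cry1, Cry2, Per2, Hlf, Tef, Nr1d2 and Dbp as well. Without it the log2 fold change of Nr1d1 was -1.53 and that of Dbp, a D-box activator, was -1.12 in place of -1.75, and between 14 and 16 clock genes were called whichever library was left out. Tef (-1.65), Hlf (-2.22), Nr1d2 (-1.32) and Bhlhe41 (-2.12) also fell. Clock itself was at 117, 126 and 125 CPM at 1 DPA and 97.6, 103 and 111 CPM at 5 DPA (log2 fold change -0.24 ± 0.09 (SE), adjusted p = 0.0326), a small difference. Its call ended under the scaling without the 50 most abundant genes (adjusted p = 0.402) and without replicate 1 or 2 of CTRL, replicate 2 or 3 of 1 DPA or replicate 1 or 2 of 5 DPA (adjusted p between 0.055 and 0.119). Ciart was not called (log2 fold change -1.21 ± 0.72 (SE), adjusted p = 0.182), with 63.05, 54.6 and 375 CPM at 1 DPA and 70.4, 77.9 and 64.3 CPM at 5 DPA. The time of day at which the islets were collected is not given in the sources used here. Adjusted for the macrophage score, 7 clock genes were called lower, and adjusted for the stromal score 9, or 13 and 14 at an unadjusted p under 0.05. With the macrophage score the change of Nr1d1 was -2.403, that of Per1 -2.67, that of Hlf -2.13, that of Bhlhe41 -2.098 and that of Per3 -0.59.

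The letters through which the activator binds were searched in the promoters of these genes, because the members moved together. Promoter sequences were looked up by the gene symbols used here, so a gene filed under another symbol was left out. The window ran from 250 bases before to 50 bases after the start. The E-box CACGTG, a palindrome that reads the same on both strands, was found for 5 of the 15 clock genes matched by symbol (33.3%). Among all genes with a promoter sequence it was found for 2187 of 27025 (8.09%). The 5 genes were Per1, Cry1, Tef, Ciart and Bhlhe41. The 250 bases before the start of Per1 (GRCm38, chr11:69098699-69098948, plus strand) and Cry1 (chr10:85185055-85185304, minus strand), both from RefSeq and chosen as the repressors of the loop, are given 5′ to 3′ on the strand of the gene with the E-box in capitals. The search was chosen after the values of the clock genes had been seen, and a match is a description of the letters, not a site shown to be bound.
Per1: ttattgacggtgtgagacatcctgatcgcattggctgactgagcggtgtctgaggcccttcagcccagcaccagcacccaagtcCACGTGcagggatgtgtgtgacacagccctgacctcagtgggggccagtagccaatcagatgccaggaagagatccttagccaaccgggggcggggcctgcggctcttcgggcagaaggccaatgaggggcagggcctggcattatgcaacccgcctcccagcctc
Cry1: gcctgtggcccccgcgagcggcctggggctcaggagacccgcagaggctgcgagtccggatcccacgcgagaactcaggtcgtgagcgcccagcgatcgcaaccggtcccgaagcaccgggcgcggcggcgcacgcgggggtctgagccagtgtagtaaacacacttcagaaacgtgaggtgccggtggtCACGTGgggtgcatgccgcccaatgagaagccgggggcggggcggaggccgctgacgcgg

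Some genes that answer to p53 fell, in a share close to that of all genes. Aen, an apoptosis-enhancing nuclease, was at 173, 162 and 167 CPM at 1 DPA and 50.96, 48.97 and 57.5 CPM at 5 DPA (log2 fold change -1.67 ± 0.09 (SE), adjusted p = 2.24e-07). Plk3, a stress-activated kinase, was at 107, 101 and 93.6 CPM at 1 DPA and 39.3, 39.2 and 34.04 CPM at 5 DPA (log2 fold change -1.42 ± 0.17 (SE), adjusted p = 4.8e-05). Bbc3, which encodes the pro-apoptotic BH3 protein PUMA, was at 56.3, 47.1 and 61.6 CPM at 1 DPA and 19.9, 23.6 and 21.1 CPM at 5 DPA (log2 fold change -1.35 ± 0.14 (SE), adjusted p = 1.35e-05). The libraries of each day were close together for all 3 genes and the days did not overlap. Ddit4l also fell (log2 fold change -1.08 ± 0.25 (SE), adjusted p = 0.00284). In all, 6 of 20 genes of the list were called lower, where 29.8% of all genes were. Of these 6, Mdm2 (-0.30) and Eda2r (-0.52) were not called under the scaling without the 50 most abundant genes, and the median was -0.18. Eda2r was also not called without replicate 2 or 3 of 1 DPA or replicate 2 or 3 of 5 DPA (adjusted p between 0.0555 and 0.11). The cell cycle inhibitor Cdkn1a was at 104, 93.5 and 87.1 CPM at 1 DPA and 114, 131 and 149 CPM at 5 DPA and not called (log2 fold change 0.47 ± 0.25 (SE), adjusted p = 0.132), although every 5 DPA library was above every 1 DPA library, and its mean was 286 CPM at 3 DPA against 37.4 in CTRL. Bax (-0.24), Ccng1 (-0.11), Phlda3 (-0.45) and Gdf15 (0.63) were not called. The BH3 gene Pmaip1 was the single member called higher (log2 fold change 2.43 ± 0.69 (SE), adjusted p = 0.0129), and without replicate 2 of 1 DPA its adjusted p was 0.0516.

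The integrated stress response, in which Atf4 drives genes of amino acid supply and of the recovery of protein synthesis, held some regulators that fell and many targets that were not called. Atf4 was at 371, 344 and 396 CPM at 1 DPA and 196, 215 and 233 CPM at 5 DPA (log2 fold change -0.79 ± 0.10 (SE), adjusted p = 5.66e-05). Ddit3, which encodes the transcription factor CHOP, was at 50.3, 47.2 and 53.3 CPM at 1 DPA and 21.4, 25.2 and 22.04 CPM at 5 DPA (log2 fold change -1.13 ± 0.13 (SE), adjusted p = 2.19e-05). Ppp1r15a, a subunit of the phosphatase that restores initiation, was at 127, 127 and 123 CPM at 1 DPA and 61.1, 64.7 and 58.4 CPM at 5 DPA (log2 fold change -1.03 ± 0.15 (SE), adjusted p = 0.000205). The 1 DPA libraries of these 3 genes were all above those of 5 DPA, which lay above the CTRL means of 162, 13.7 and 40.5 CPM. Vldlr, a lipoprotein receptor, fell too (log2 fold change -0.90 ± 0.12 (SE), adjusted p = 5.84e-05). Of 16 genes 5 were called lower, near the 29.8% of all genes, and 1 was called higher, and the median was -0.02. The asparagine synthetase Asns (-0.23), the pseudokinase Trib3 (0.09), the serine synthesis enzymes Phgdh (0.13) and Psat1 (0.44) and the stress protein Sesn2 (-0.03) were not called. The cystine transporter Slc7a11 was the member that rose, from 0.2203, 0.343 and 0.317 CPM to 2.32, 1.75 and 1.96 CPM (log2 fold change 2.76 ± 0.62 (SE), adjusted p = 0.00269), and its CTRL mean was 1.101 CPM.

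The element TGATGNAA, to which ATF4 and C/EBP factors bind together, was searched on both strands in the same promoter windows. It was found for 6 of 16 genes of the list (37.5%) and for 1219 of 27025 genes (4.51%). Vldlr fell and Slc7a11 rose, and both hold the element within the 250 bases before the start. They are shown as the 2 members with the element that moved in opposite directions, from RefSeq, with the element or its reverse complement in capitals (Vldlr at GRCm38 chr19:27216770-27217019, plus strand, and Slc7a11 at chr3:50443614-50443863, minus strand, with 2 copies).
Vldlr: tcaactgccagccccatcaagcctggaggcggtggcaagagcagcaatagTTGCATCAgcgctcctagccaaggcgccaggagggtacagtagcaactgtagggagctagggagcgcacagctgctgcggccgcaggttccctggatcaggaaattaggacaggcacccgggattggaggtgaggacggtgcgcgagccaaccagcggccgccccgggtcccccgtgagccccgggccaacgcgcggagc
Slc7a11: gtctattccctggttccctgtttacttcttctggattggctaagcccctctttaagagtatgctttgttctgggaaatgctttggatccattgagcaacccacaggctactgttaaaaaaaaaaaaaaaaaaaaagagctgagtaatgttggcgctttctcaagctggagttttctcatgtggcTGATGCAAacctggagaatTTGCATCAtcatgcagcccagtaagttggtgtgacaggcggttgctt

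Genes for making ribosomes came down between the days, while the ribosomal proteins themselves went up a little. Of 16 genes of ribosome biogenesis and RNA polymerase I, 13 were called lower and 1 higher, with a median of -0.58. Nop58, a core protein of box C/D small nucleolar ribonucleoproteins, was at 115, 115 and 135 CPM at 1 DPA and 51.8, 44.5 and 46.7 CPM at 5 DPA (log2 fold change -1.35 ± 0.10 (SE), adjusted p = 1.26e-06). Its partners Nop56 (-0.84) and Fbl (-0.75), the nucleolar proteins Ncl (-0.92), Nolc1 (-0.85), Nop2 (-0.76) and Wdr12 (-0.85) and the polymerase I initiation factor Rrn3 (-0.50) fell as well. Every one of these had no overlap between the days, and Ncl was highest in replicate 3 of 1 DPA. The exception was Myc, a transcription factor that activates this programme, at 6.17, 4.46 and 2.76 CPM at 1 DPA and 9.14, 8.15 and 8.36 CPM at 5 DPA (log2 fold change 0.94 ± 0.27 (SE), adjusted p = 0.0106). Adjustment for the macrophage score left 7 genes of the list called lower (11 at an unadjusted p under 0.05) and for the stromal score 11, with changes of -1.16 for Ncl, -0.84 for Nolc1, -0.69 for Nop2 and -0.37 for Nop56 in the first fit.

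Host transcripts of small nucleolar RNAs followed the biogenesis genes, with 7 of 12 called lower, against 29.8% of all genes, and a median of -0.80. Snhg12 was at 44.7, 41.4 and 45.2 CPM at 1 DPA and 9.88, 11.2 and 9.35 CPM at 5 DPA (log2 fold change -2.11 ± 0.19 (SE), adjusted p = 6.28e-06). Epb41l4aos (-2.17), Snhg15 (-1.82), Snhg1 (-0.79) and Zfas1 (-0.80) fell as well. Gas5 (-0.08), Snhg8 (-0.14) and Snhg3 (0.09) were not called. Such transcripts are made to be spliced for the small RNAs in their introns, and many of them are degraded when they are translated. Among cytosolic ribosomal proteins 15 of 20 were called higher, against 26.3% of all genes, by small amounts (median 0.25). Rplp0, a protein of the ribosomal stalk, was at 287, 287 and 282 CPM at 1 DPA and 434, 409 and 441 CPM at 5 DPA (log2 fold change 0.59 ± 0.06 (SE), adjusted p = 1.61e-05). The small-subunit proteins Rps24 (0.55) and Rps4x (0.43) rose likewise. After adjustment for the macrophage score 1 of the 20 was called higher, and for the stromal score 5. Rpl18 went the other way without being called (log2 fold change -0.73 ± 0.29 (SE), adjusted p = 0.0515), with 391, 384 and 839 CPM at 1 DPA and 327, 323 and 323 CPM at 5 DPA. It lies 5254 bases downstream of Dbp on the same strand of chromosome 7, and replicate 3 of 1 DPA was the highest library for both genes.

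The machinery of translation elongation, the target of the toxin, was examined by name. Eef2, the factor that the toxin modifies, was at 1846, 1729 and 1781 CPM at 1 DPA and 1660.2, 1663 and 1684 CPM at 5 DPA and not called (log2 fold change -0.10 ± 0.06 (SE), adjusted p = 0.213). Diphthamide is the modified histidine on that factor to which the toxin attaches ADP-ribose, and 4 of the Dph genes that build it fell. Dph5 was at 9.17, 6.89 and 6.98 CPM at 1 DPA and 3.86, 3.65 and 4.06 CPM at 5 DPA (log2 fold change -0.99 ± 0.15 (SE), adjusted p = 0.000148), and Dph1 and Dph2 changed by -0.66 and -0.60. The fourth, Dph7 (-0.49), was not called under the scaling without the 50 most abundant genes or without replicate 3 of 1 DPA (adjusted p = 0.0581), and Dph3 (0.01) and Dph6 (0.08) were not called, Dph6 passing under that scaling (adjusted p = 0.0298). The initiation factors Eif5 (-0.77), Eif3a (-0.75) and Eif2s1 (-0.54) fell, whereas the elongation factors Eef1a1 (0.41) and Eef1b2 (0.41) and the kinase Eef2k (0.58), which inhibits Eef2, rose. In this list of 16 genes 8 were called lower and 3 higher, against 29.8% and 26.3% of all genes. Adjusted for the macrophage score, edgeR called 4 lower and 0 higher (5 and 2 at an unadjusted p under 0.05). In that fit Dph5 was called, and Dph1, Dph2 and Dph7 were not.

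Several genes of the NF-kB pathway fell, and several chemokines that it can induce rose. Nfkb2, the precursor of the p52 subunit, was at 375, 376 and 594 CPM at 1 DPA and 79.8, 83.4 and 120.5 CPM at 5 DPA (log2 fold change -2.25 ± 0.39 (SE), adjusted p = 0.000942). The inhibitors of the pathway Tnfaip3 (log2 fold change -2.03 ± 0.42 (SE), adjusted p = 0.00292) and Nfkbia (log2 fold change -1.17 ± 0.27 (SE), adjusted p = 0.00477), the survival factor Birc3 (log2 fold change -1.88 ± 0.33 (SE), adjusted p = 0.000878) and Nfkb1 (-0.38) fell with it. All of these had every 1 DPA library above every 5 DPA library, and replicate 3 was the highest of the 5 DPA libraries for each. Relb fell as well (-1.4997), but it was not called under the scaling without the 50 most abundant genes (adjusted p = 0.0501), with no filter on low counts, with the replicate block, or without replicate 2 of CTRL, replicate 1, 2 or 3 of 1 DPA, replicate 3 of 3 DPA or replicate 1 or 2 of 5 DPA (adjusted p between 0.0515 and 0.115).

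The neutrophil-attracting chemokines Cxcl1 and Cxcl2 and the interferon-induced Cxcl10 rose. Cxcl2 was at 0.413, 0.158 and 0.349 CPM at 1 DPA and 16.97, 20.8 and 12.7 CPM at 5 DPA (log2 fold change 5.78 ± 0.77 (SE), adjusted p = 0.000182). Cxcl1 was at 1.79, 1.21 and 2.79 CPM at 1 DPA and 21.2, 23.998 and 16.03 CPM at 5 DPA (log2 fold change 3.42 ± 0.64 (SE), adjusted p = 0.00161). Cxcl10 was at 6.44, 2.69 and 2.22 CPM at 1 DPA and 40.3, 49.6 and 42.5 CPM at 5 DPA (log2 fold change 3.54 ± 0.68 (SE), adjusted p = 0.00214). Within 5 DPA the 3 libraries lay within 2-fold of each other, and the 3 DPA means were higher still, at 36.9, 55.6 and 119 CPM. Without replicate 1 of 1 DPA, the highest of that day, the log2 fold change of Cxcl10 was 4.16. The monocyte attractant Ccl2 also rose (log2 fold change 2.44 ± 0.59 (SE), adjusted p = 0.00478). In all, 7 of the 16 genes of the list were called higher and 6 lower, against 26.3% and 29.8% of all genes. The median of 1.29 does not show this split. Adjusted for the macrophage or the stromal score, edgeR called 0 of the list higher (0 and 2 at an unadjusted p under 0.05) and 7 and 6 lower, and macrophage markers rose over the same days. Il1b (log2 fold change 0.85 ± 0.51 (SE), adjusted p = 0.177) and Il6 (log2 fold change 1.49 ± 0.88 (SE), adjusted p = 0.169) were not called.

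Single immediate early genes moved in both directions. Egr1, a growth- and stress-induced transcription factor, was at 469, 604 and 468 CPM at 1 DPA and 2422, 2593 and 1655 CPM at 5 DPA (log2 fold change 2.11 ± 0.38 (SE), adjusted p = 0.0012). Its relative Egr4 was at 19.3, 24.6 and 21.8 CPM at 1 DPA and 205, 249 and 183 CPM at 5 DPA (log2 fold change 3.28 ± 0.33 (SE), adjusted p = 2.76e-05). Jun was at 294, 289 and 261 CPM at 1 DPA and 588, 576 and 473 CPM at 5 DPA (log2 fold change 0.96 ± 0.22 (SE), adjusted p = 0.00368). For these 3 genes the 3 DPA means of 5886, 792 and 1151 CPM were above both days. The nuclear receptors Nr4a1 and Nr4a2 were higher at 1 DPA, Nr4a1 at 1084, 1060.4 and 699 CPM at 1 DPA and 316, 360.2 and 414 CPM at 5 DPA (log2 fold change -1.38 ± 0.37 (SE), adjusted p = 0.00967). Nr4a2 was at 226, 220.2 and 143 CPM at 1 DPA and 50.4, 61.4 and 65.7 CPM at 5 DPA (log2 fold change -1.73 ± 0.27 (SE), adjusted p = 0.000445). Replicate 3 was the lowest 1 DPA library for both, and still above every 5 DPA library. Srf fell by 0.61 on the log2 scale. Fos was at 161, 188 and 159 CPM at 1 DPA and 171, 179 and 142 CPM at 5 DPA, overlapping and not called (log2 fold change -0.04 ± 0.34 (SE), adjusted p = 0.923), and Fosb (-0.43), Junb (-0.43) and Ier2 (-0.01) were not called. Of the 15 genes 4 were called higher and 3 lower, no larger a share than the 29.8% lower and about the 26.3% higher of all genes. The fourth of the higher ones, Atf3 (log2 fold change 1.94 ± 0.69 (SE), adjusted p = 0.0385), was not called without replicate 1, 2 or 3 of 1 DPA, replicate 3 of 3 DPA or replicate 1 or 2 of 5 DPA (adjusted p between 0.0531 and 0.103).

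**Figure D3:**
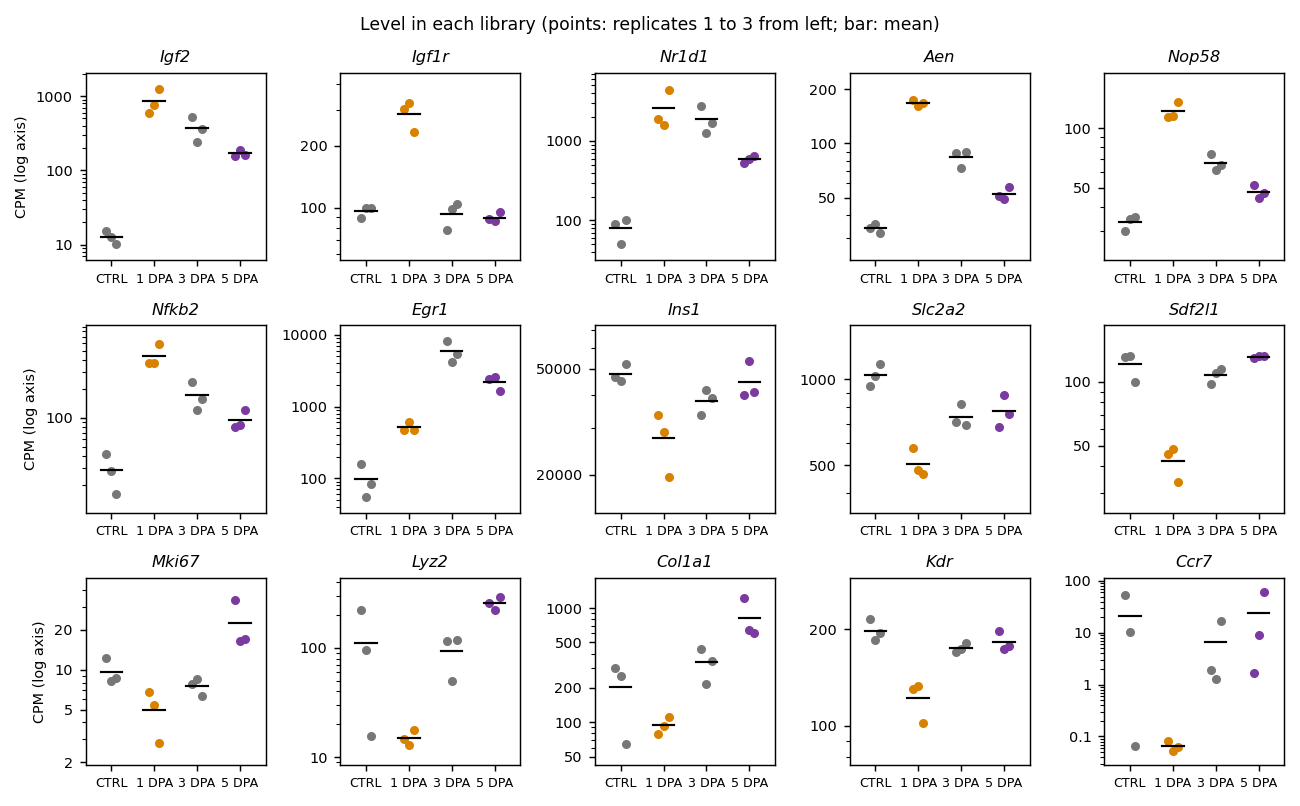
Level of 15 genes in each library (vertical axes, CPM on a log scale), with the replicates of CTRL, 1 DPA, 3 DPA and 5 DPA from left to right and a bar at each mean. Igf2, Igf1r, Nr1d1, Aen, Nop58 and Nfkb2 are higher in every 1 DPA library (orange) than in every 5 DPA library (purple), and the remaining genes, such as Ins1, Sdf2l1, Lyz2 and Col1a1, are lower.

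The 10 largest falls by the naming rule (average level of at least 1 on the log2 CPM scale, no overlap, no predicted genes) were genes at CTRL means of 0 to 1.61 CPM. Diras2, a small GTPase, was at 69.96, 76.8 and 45.9 CPM at 1 DPA and 2.83, 2.18 and 3.78 CPM at 5 DPA (log2 fold change -4.46 ± 0.27 (SE), adjusted p = 8.07e-07), with a CTRL mean of 1.01 CPM. Hhipl2 was at 15.1, 14.8 and 20.4 CPM at 1 DPA and 1.03, 1.35 and 1.35 CPM at 5 DPA (log2 fold change -3.76 ± 0.22 (SE), adjusted p = 3.89e-07), with 0.581 CPM in CTRL. Cyp26b1, which degrades retinoic acid, was at 34.1, 2.56 and 50.96 CPM at 1 DPA and 0.988, 1.15 and 1.68 CPM at 5 DPA (log2 fold change -4.53 ± 0.92 (SE), adjusted p = 0.00243), and replicate 2 of 1 DPA was far below the other libraries of that day. It changed by -3.81 without replicate 3 of 1 DPA and was not called by limma-voom (adjusted p = 0.119). The others were Igflr1 (-4.47), the histone gene Hist1h2ad (-4.39), Krtap17-1 (-3.69), Myo15 (-3.42), the potassium channel Kcnj14 (-3.4001), Lingo4 (-3.39) and Cplx3 (-3.26). Cplx3 was highest in replicate 3 of 1 DPA, and without that library its change was -1.81 and that of Lingo4 -2.77. The change of Igflr1 was -5.23 without replicate 3 of 5 DPA, and that of Hist1h2ad -5.01 without replicate 2 of 5 DPA.

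Several of these genes start just behind another expressed gene. Myo15 begins 585 bases after the end of Drg2, Kcnj14 441 after Grwd1 and Cplx3 804 after Lman1l, all on the same strand, and Igflr1 overlaps U2af1l4. Across all genes, the share with a tested gene ending within 5000 bases upstream on the same strand was 14.5% (2495 of 17257 genes with a position). It was 35.7% (114 of 319) for genes called lower by 4-fold or more, 21.9% for falls of 2-fold to 4-fold and 14.8% for smaller falls. Among genes called higher it was 13% under 2-fold, 10% from 2-fold to 4-fold and 9.95% at 4-fold or more. These shares are a description of where the genes lie. Their median level in CTRL was 0.146 CPM for the falls of 4-fold or more and 14.9 CPM over all genes with a position, and whether reads running past the end of the upstream gene were counted in them was not tested.

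**Figure D4:**
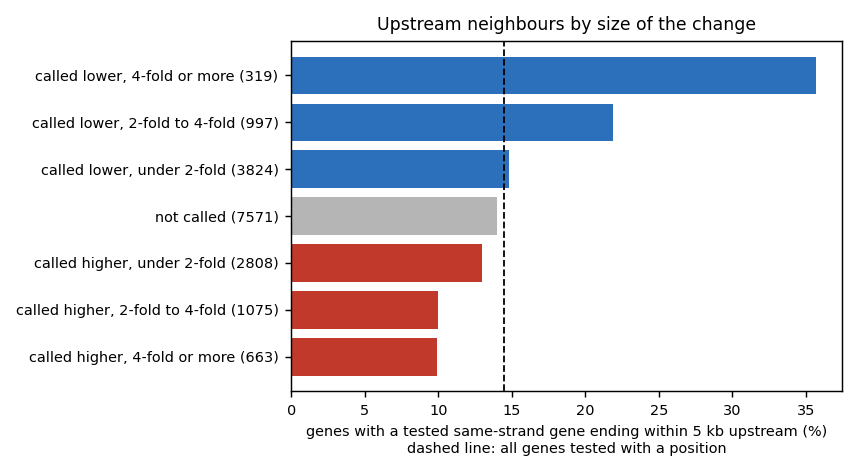
Bars give the percent of genes (horizontal axis) that have another tested gene on the same strand ending within 5 kb upstream of their start, for classes of genes by the direction and size of the change at 5 DPA over 1 DPA. The share rises from 14% of genes not called to 35.7% of genes called lower by 4-fold or more, and the dashed line marks the 14.5% over all genes with a position.

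Chaperones and folding enzymes of the endoplasmic reticulum were higher at 5 DPA. These proteins fold secreted proteins such as proinsulin, and the transcription factors ATF6 and XBP1 induce them. Of 16 genes 14 were called higher, with a median of 0.95, against 26.3% of all genes called higher. Sdf2l1, a regulator of the chaperone cycle, was at 45.7, 48.03 and 33.7 CPM at 1 DPA and 129, 132 and 132 CPM at 5 DPA (log2 fold change 1.63 ± 0.14 (SE), adjusted p = 3.6e-06). Hspa5, which encodes the chaperone BiP, was at 713, 837 and 646 CPM at 1 DPA and 1368, 1323 and 1516 CPM at 5 DPA (log2 fold change 0.94 ± 0.10 (SE), adjusted p = 1.74e-05). Both genes were lowest in replicate 3 of 1 DPA, the days did not overlap, and the 5 DPA libraries were close to the CTRL means of 121 and 1382 CPM.

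The disulfide isomerases Pdia6 (1.18) and Pdia4 (0.97), the secreted factor Manf (1.12), the chaperones Hyou1 (1.03), Hsp90b1 (0.81), Calr (0.98) and Canx (0.47) and the co-chaperones Dnajb9 (0.96) and Dnajb11 (0.86) rose as well. Pdia6 was at 225, 239 and 177 CPM at 1 DPA and 477, 484 and 489 CPM at 5 DPA. Xbp1 itself rose by 0.42 on the log2 scale. The members not called belong to the removal of misfolded proteins, Herpud1 at 139, 150.5 and 143 CPM at 1 DPA and 135, 132 and 156 CPM at 5 DPA (-0.03) and Sel1l (0.29), and the similarly placed Edem1 rose (0.54). With the macrophage, stromal or acinar score as a covariate 10, 12 and 15 genes of the list were called higher.

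The endoplasmic reticulum stress element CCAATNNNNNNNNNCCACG, the letters through which ATF6 acts together with NF-Y, was searched on both strands in the promoter windows after these values had been seen. It was found for 6 of the 14 folding genes matched by symbol to a promoter sequence (42.9%), and for 37 of 27025 genes (0.137%). The 6 genes were Hspa5, Hsp90b1, Pdia6, Creld2, Calr and Canx. Shown from RefSeq, as 3 abundant chaperones of the group, are the 250 bases before the start of Hspa5 (GRCm38 chr2:34771840-34772089, plus strand, element from -65 to -47), Hsp90b1 (chr10:86705445-86705694, minus strand, 2 copies) and Pdia6 (chr12:17266339-17266588, plus strand, element from -98 to -80), with the element or its reverse complement in capitals.
Hspa5: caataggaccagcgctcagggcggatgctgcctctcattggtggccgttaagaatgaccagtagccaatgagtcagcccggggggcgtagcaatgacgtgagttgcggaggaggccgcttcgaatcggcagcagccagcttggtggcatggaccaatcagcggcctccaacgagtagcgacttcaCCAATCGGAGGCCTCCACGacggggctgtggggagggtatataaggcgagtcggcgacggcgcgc
Hsp90b1: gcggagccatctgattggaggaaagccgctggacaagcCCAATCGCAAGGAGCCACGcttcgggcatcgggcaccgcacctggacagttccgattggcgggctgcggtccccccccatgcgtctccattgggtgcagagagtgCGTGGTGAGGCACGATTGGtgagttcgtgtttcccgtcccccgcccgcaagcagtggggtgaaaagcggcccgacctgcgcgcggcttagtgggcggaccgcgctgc
Pdia6: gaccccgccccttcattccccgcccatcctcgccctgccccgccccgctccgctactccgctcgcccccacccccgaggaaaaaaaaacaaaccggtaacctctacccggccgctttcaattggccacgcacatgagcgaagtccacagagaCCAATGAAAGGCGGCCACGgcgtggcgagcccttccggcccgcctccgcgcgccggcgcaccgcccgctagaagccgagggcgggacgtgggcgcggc

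Beta-cell genes did not move as a group. Ins1 was at 33483, 29019 and 19691 CPM at 1 DPA and 40053, 53356 and 40944 CPM at 5 DPA (log2 fold change 0.71 ± 0.18 (SE), adjusted p = 0.00544). Ins2, the more conserved of the mouse insulin genes, was at 119174, 102456 and 78865 CPM at 1 DPA and 102415, 141936 and 102547 CPM at 5 DPA and not called (log2 fold change 0.21 ± 0.16 (SE), adjusted p = 0.3). Replicate 3 was the lowest of 1 DPA for both, and the days overlapped for Ins2 only. The glucose transporter Slc2a2 was at 577, 481 and 465 CPM at 1 DPA and 681, 881 and 759 CPM at 5 DPA (log2 fold change 0.61 ± 0.12 (SE), adjusted p = 0.000992), with no overlap and a CTRL mean of 1038 CPM above both days. The amyloid hormone Iapp (log2 fold change 0.43 ± 0.13 (SE), adjusted p = 0.0122) and Ero1lb, the oxidase of proinsulin folding (log2 fold change 0.51 ± 0.15 (SE), adjusted p = 0.0139), also rose. In the other direction, the transcription factor Neurod1 was at 271, 295 and 239 CPM at 1 DPA and 137, 155 and 158 CPM at 5 DPA (log2 fold change -0.84 ± 0.13 (SE), adjusted p = 0.000174). It stood above its CTRL mean of 170.2 CPM at 1 DPA and slightly below it at 5 DPA. The subunits of the ATP-sensitive potassium channel fell, Kcnj11 (-0.47) and Abcc8 (-0.44), Abcc8 with an adjusted p of 0.0725 under the scaling without the 50 most abundant genes.

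The identity factors Pdx1 (log2 fold change -0.10 ± 0.11 (SE), adjusted p = 0.463) and Nkx6-1 (log2 fold change -0.12 ± 0.12 (SE), adjusted p = 0.423), the receptor Glp1r (log2 fold change 0.10 ± 0.11 (SE), adjusted p = 0.472) and the maturity hormone Ucn3 (log2 fold change 0.14 ± 0.12 (SE), adjusted p = 0.352) were not called, and their libraries overlapped. Mafa, a factor of mature beta cells, was at 724, 739 and 536 CPM at 1 DPA and 511, 571 and 441 CPM at 5 DPA (log2 fold change -0.39 ± 0.16 (SE), adjusted p = 0.0498). It overlapped between the days, and it was not called under the scaling without the 50 most abundant genes or without replicate 1 or 2 of CTRL, replicate 1 or 2 of 1 DPA, replicate 1, 2 or 3 of 3 DPA or replicate 1 or 3 of 5 DPA (adjusted p between 0.0567 and 0.169). In all 4 of 18 beta-cell genes were called higher and 5 lower, near the 26.3% and 29.8% of all genes, with a median of 0.03. Of the secretory granule and exocytosis genes, Snap25 (-0.75) and Syt7 (-0.65), which carry out membrane fusion, fell, and the granule proteins Chgb (0.42), Scg5 (0.35) and Vgf (0.96) rose. Vgf was at 83.8, 71.1 and 54.5 CPM at 1 DPA and 152, 157 and 98.3 CPM at 5 DPA, with a CTRL mean of 35.6 CPM below both days. Of the other channels, Kcnh6 (log2 fold change -0.98 ± 0.21 (SE), adjusted p = 0.00281), the potassium channel Kcnma1 (-0.38) and the calcium channel Cacna1c (-0.37) fell. In the list of 14 ion channel and excitability genes 5 were called lower and 3 higher (by up to 0.54), near the 29.8% and 26.3% of all genes. Adjusted for the macrophage or the stromal score, edgeR called 0 of them lower (0 and 1 at an unadjusted p under 0.05).

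Genes that mature beta cells normally keep low, or that mark immature ones, were called higher at 5 DPA in 8 of 14 cases, where 26.3% of all genes were. Hk1, a hexokinase of low Km, was at 15.2, 21.1 and 20.6 CPM at 1 DPA and 45.2, 31.3 and 37.4 CPM at 5 DPA (log2 fold change 1.002 ± 0.14 (SE), adjusted p = 0.000123). Lactate dehydrogenase Ldha was at 18.6, 18.3 and 18.2 CPM at 1 DPA and 55.7, 37.7 and 52.7 CPM at 5 DPA (log2 fold change 1.404 ± 0.24 (SE), adjusted p = 0.000713). The monocarboxylate transporter Slc16a1 was at 1.16, 1.13 and 2.09 CPM at 1 DPA and 4.75, 3.81 and 4.69 CPM at 5 DPA (log2 fold change 1.599 ± 0.31 (SE), adjusted p = 0.00103). The repressor Rest (log2 fold change 1.37 ± 0.25 (SE), adjusted p = 0.000671), Acot7 (0.94), Cd81 (0.60), Npy (0.78) and Cxcl14 (2.48) rose too. None of these 8 overlapped between the days, which holds for 98.1% of all genes called higher. Markers of macrophages and stromal cells rose over the same days. Adjusted for the macrophage score 2 of the 14 were called higher, and for the stromal score 5. The dedifferentiation marker Aldh1a3 was at 6.55, 7.07 and 2.47 CPM at 1 DPA and 3.002, 2.74 and 2.73 CPM at 5 DPA (log2 fold change -0.93 ± 0.31 (SE), adjusted p = 0.0241). Replicate 3 of 1 DPA was below every 5 DPA library, and the call ended without replicate 1 or 2 of 1 DPA or replicate 2 or 3 of 5 DPA (adjusted p between 0.0645 and 0.112), under the scaling without the 50 most abundant genes (adjusted p = 0.0514), in limma-voom and in the fit of only the 6 libraries. The progenitor factor Neurog3 (log2 fold change 0.52 ± 0.24 (SE), adjusted p = 0.0815) was not called.

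Most delta-cell genes were somewhat higher at 5 DPA. Somatostatin, Sst, was at 5054, 5865 and 6728 CPM at 1 DPA and 9601, 9634 and 8153 CPM at 5 DPA (log2 fold change 0.63 ± 0.14 (SE), adjusted p = 0.00226). Its factor Hhex was at 22.6, 30.2 and 32.5 CPM at 1 DPA and 44.8, 43.5 and 40.03 CPM at 5 DPA (log2 fold change 0.59 ± 0.12 (SE), adjusted p = 0.00178). The 5 DPA libraries of both were above those of 1 DPA and above the CTRL means of 6840.5 and 34.5 CPM. Rbp4 (0.54) and Tspan8 (0.62) rose as well, and, against 26.3% of all genes, 6 of the 9 delta and PP cell genes were called higher. Adjusted for the macrophage score, edgeR called 0 of these (4 at an unadjusted p under 0.05), and for the stromal score 3. Pancreatic polypeptide, Ppy, was at 1628, 1515 and 1851 CPM at 1 DPA and 3038, 1692 and 3621 CPM at 5 DPA and not called (log2 fold change 0.74 ± 0.37 (SE), adjusted p = 0.111). Glucagon, Gcg, was at 14609.7, 23101 and 22567 CPM at 1 DPA and 32974, 22013 and 19731 CPM at 5 DPA, with overlapping days (log2 fold change 0.31 ± 0.24 (SE), adjusted p = 0.285), and the alpha-cell factor Irx2 (0.19) was not called. Of 12 alpha-cell genes 3 were called higher, near the 26.3% of all genes, and 0 lower, with changes from 0.06 to 2.23. Adjusted for the macrophage or the stromal score, edgeR called 0 of them higher (3 and 1 at an unadjusted p under 0.05). Duct genes were split between Bicc1 (log2 fold change 0.86 ± 0.09 (SE), adjusted p = 1.58e-05), Epcam (0.50), Sox9 (1.02) and Spp1 (1.19), which rose, and the keratins Krt19 (-0.72) and Krt7 (-0.20), which were not called. Of the 17 acinar genes, 16 were not called (median -0.68), and the one that rose, the secretory transcription factor Bhlha15 (log2 fold change 0.81 ± 0.18 (SE), adjusted p = 0.00289), had no overlap between the days, unlike the acinar enzymes.

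Energy metabolism changed in small steps. The 37 genes of the mitochondrial genome took 1.61%, 1.76% and 1.62% of the counts at 1 DPA and 1.98%, 2.12% and 2.02% at 5 DPA, without overlap (exact two-sided permutation test, p = 0.1, the smallest possible). Of 13 of these transcripts tested as a list, 8 were called higher, against 26.3% of all genes, with a median of 0.26. The complex I subunits mt-Nd1 (log2 fold change 0.53 ± 0.09 (SE), adjusted p = 0.000297), mt-Nd2 (0.48) and mt-Nd3 (0.60) had the firmest calls, with mt-Nd1 at 864, 902 and 775 CPM at 1 DPA and 1235, 1268 and 1167 CPM at 5 DPA. The count was 4 without replicate 2 of 5 DPA, 5 without replicate 3 of either day, and 13 under the scaling without the 50 most abundant genes. Of the nuclear-encoded respiratory chain 6 of 20 were called higher and 7 lower, close to the 26.3% and 29.8% of all genes. Ndufa4, a subunit of complex IV, was at 22.6, 24.6 and 22.4 CPM at 1 DPA and 44.1, 43.7 and 45.1 CPM at 5 DPA (log2 fold change 0.93 ± 0.08 (SE), adjusted p = 2.24e-06). Uqcrc2, a core subunit of complex III, was at 139.5, 136 and 153 CPM at 1 DPA and 100.5, 101 and 104 CPM at 5 DPA (log2 fold change -0.49 ± 0.06 (SE), adjusted p = 6.59e-05). Neither overlapped between the days, and the 5 DPA libraries lay near the CTRL means of 43.6 and 94.9 CPM.

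Of 16 glycolysis and hypoxia genes 10 rose and 2 fell, against 26.3% and 29.8% of all genes, with a median of 0.36. The enzymes Pgk1 (log2 fold change 0.73 ± 0.09 (SE), adjusted p = 5.4e-05), Eno1 (0.56), Gapdh (0.40) and Gpi1 (0.39) rose by less than 2-fold, and Hk2 rose more, from 0.413, 0.765 and 1.05 to 3.895, 2.99 and 4.61 CPM (log2 fold change 2.37 ± 0.41 (SE), adjusted p = 0.00047). The phosphofructokinase Pfkl fell (log2 fold change -0.44 ± 0.09 (SE), adjusted p = 0.00114), and Pkm fell by 0.37 on the log2 scale, a call that ended under the scaling without the 50 most abundant genes. Enzymes against oxidative stress also rose, 10 of 14 with a median of 0.38. Prdx1, a peroxiredoxin, was at 70.1, 73.5 and 69.4 CPM at 1 DPA and 160.4, 129 and 133 CPM at 5 DPA (log2 fold change 0.99 ± 0.08 (SE), adjusted p = 3.29e-06). Heme oxygenase Hmox1 was at 4.68, 5.57 and 5.14 CPM at 1 DPA and 37.9, 21.6 and 27.3 CPM at 5 DPA (log2 fold change 2.49 ± 0.35 (SE), adjusted p = 0.000199). Catalase Cat (1.37), Gpx1 (0.79) and Sod1 (0.38) rose with them, and the metallothionein Mt1 fell (log2 fold change -0.59 ± 0.11 (SE), adjusted p = 0.000923). Adjusting for the macrophage score, the test called 1 glycolysis gene and 4 antioxidant genes higher.

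Smaller changes were seen in lipid synthesis and heat shock genes. The sterol enzyme Lss (log2 fold change -0.86 ± 0.09 (SE), adjusted p = 1.29e-05) and the regulator Srebf2 (-0.44) fell, while Dhcr7 rose (0.40). In fatty acid metabolism the carnitine transferase Cpt1a (log2 fold change -0.74 ± 0.16 (SE), adjusted p = 0.00237) and Fasn (-0.35) fell and Acadl (log2 fold change 0.67 ± 0.10 (SE), adjusted p = 0.000141) and Me1 (0.31) rose. The regulator Hsf1 fell (log2 fold change -0.83 ± 0.08 (SE), adjusted p = 5.81e-06), and its targets Hspa1a (0.86) and Hspa1b (0.87), near-identical copies whose reads the counting may have split, rose. Of 13 heat shock genes 5 were called higher and 1 lower, against 26.3% and 29.8% of all genes. Between 2 and 8 were called higher depending on which library was left out, a range that includes the share of all genes. Adjusted for the macrophage score, edgeR called 0 of them higher (0 at an unadjusted p under 0.05). The signalling factor Stat5b, which acts below the prolactin receptor, fell (log2 fold change -0.56 ± 0.08 (SE), adjusted p = 0.000152), and Prlr itself was not called (0.06).

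The cell cycle was the process named in the title of the series, and its genes were higher at 5 DPA. For DNA replication, 19 of 24 genes were called higher, against 26.3% of all genes, with a median of 0.93. Mcm5, a subunit of the replicative helicase, was at 4.76, 4.49 and 4.85 CPM at 1 DPA and 24.6, 14.8 and 18.01 CPM at 5 DPA (log2 fold change 2.02 ± 0.18 (SE), adjusted p = 4.65e-06). The sliding clamp Pcna was at 18.7, 18.5 and 17.8 CPM at 1 DPA and 41.5, 31.7 and 33.4 CPM at 5 DPA (log2 fold change 0.95 ± 0.10 (SE), adjusted p = 1.4e-05). The licensing factor Cdt1 was at 2.203, 2.16 and 1.24 CPM at 1 DPA and 11.8, 6.49 and 6.87 CPM at 5 DPA (log2 fold change 2.16 ± 0.28 (SE), adjusted p = 5.26e-05). The libraries of 1 DPA lay together at low levels, those of 5 DPA were all above them, and replicate 1 of 5 DPA was the highest for each of the 3. Mcm2, Mcm3, Mcm4 and Rrm2 rose by 1.18, 2.001, 1.34 and 1.62 on the log2 scale. Ccne1 (log2 fold change -0.01 ± 0.34 (SE), adjusted p = 0.978), Mcm6 (log2 fold change 0.24 ± 0.17 (SE), adjusted p = 0.258), Pold1 (0.23), Orc1 (0.44) and Cdc6 (0.65) were the 5 not called.

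For mitosis, 21 of 26 genes were called higher, against 26.3% of all genes, with a median of 1.56. Mki67, the proliferation marker, was at 6.75, 5.38 and 2.82 CPM at 1 DPA and 33.8, 16.4 and 16.99 CPM at 5 DPA (log2 fold change 2.16 ± 0.36 (SE), adjusted p = 0.000497). The topoisomerase Top2a was at 6.47, 4.75 and 3.55 CPM at 1 DPA and 35.99, 15.7 and 20.03 CPM at 5 DPA (log2 fold change 2.28 ± 0.34 (SE), adjusted p = 0.000255). The kinase Cdk1 was at 1.68, 1.48 and 0.793 CPM at 1 DPA and 9.48, 5.16 and 5.63 CPM at 5 DPA (log2 fold change 2.35 ± 0.35 (SE), adjusted p = 0.000162). Replicate 1 of 5 DPA was well above the other libraries of that day for all 3, and the lowest 5 DPA library was still above the highest 1 DPA library. The CTRL means of Mki67 and Top2a were 9.71 and 8.39 CPM, and their 3 DPA means were 7.54 and 8.33 CPM. The checkpoint kinases Bub1 (2.66) and Aurkb (2.21) and the transcription factor Foxm1 (1.57) rose as well. Not called were Kif20a (-0.39), Ccnb2 (0.37), Ube2c (0.45), Nusap1 (0.58) and Birc5 (0.73). Kif20a was at 12.1, 11.1 and 14.9 CPM at 1 DPA and 13.3, 7.22 and 8.58 CPM at 5 DPA, with a CTRL mean of 4.05 CPM.

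Which cells of the islet carry these transcripts is not resolved in bulk RNA. Markers of macrophages and stromal cells rose over the same days, as given above. In the fit adjusted for the macrophage score 7 of the replication genes and 1 of the mitosis genes were called higher. With the stromal score these counts were 11 and 5. At an unadjusted p under 0.05 they were 14 and 9 with the macrophage score. The log2 fold change in that fit was 2.22 for Mki67, 2.06 for Top2a, 2.304 for Bub1, 1.81 for Foxm1, 2.39 for Cdt1, 1.91 for Cdk1, 1.57 for Mcm5 and 1.23 for Mcm3. Among the regulators of cell cycle entry, cyclin D1, Ccnd1, was at 67.98, 72.8 and 65.7 CPM at 1 DPA and 128, 106 and 117 CPM at 5 DPA (log2 fold change 0.77 ± 0.09 (SE), adjusted p = 3.97e-05). Cdk2 (log2 fold change 1.14 ± 0.15 (SE), adjusted p = 5.61e-05) and the pocket protein Rbl1 (0.99) rose, and Rb1 fell (log2 fold change -0.44 ± 0.06 (SE), adjusted p = 5.42e-05). Ccnd2, another D cyclin, was not called (log2 fold change 0.07 ± 0.11 (SE), adjusted p = 0.604), with 855, 808 and 659 CPM at 1 DPA and 818, 867 and 754 CPM at 5 DPA, and Cdk4 was not called either (0.08). The inhibitor Cdkn1b fell by 0.33 on the log2 scale, a call that ended under the scaling without the 50 most abundant genes, and the tumour suppressor Men1 rose by 0.32.

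Macrophage genes were called higher in 14 of 14 cases, with a median of 2.63. Lyz2, lysozyme, was at 14.6, 12.96 and 17.8 CPM at 1 DPA and 257, 221 and 289 CPM at 5 DPA (log2 fold change 4.08 ± 0.83 (SE), adjusted p = 0.00281). Adgre1, which encodes the surface marker F4/80, was at 5.48, 5.59 and 7.103 CPM at 1 DPA and 24.6, 25.1 and 36.7 CPM at 5 DPA (log2 fold change 2.25 ± 0.41 (SE), adjusted p = 0.00124). The complement gene C1qa was at 34.2, 30.4 and 34.4 CPM at 1 DPA and 94.8, 109 and 148 CPM at 5 DPA (log2 fold change 1.83 ± 0.29 (SE), adjusted p = 0.000553). The fractalkine receptor Cx3cr1 was at 9.25, 9.47 and 11.4 CPM at 1 DPA and 39.1, 37.9 and 44.7 CPM at 5 DPA (log2 fold change 2.02 ± 0.20 (SE), adjusted p = 1.48e-05). The libraries of 1 DPA were tightly grouped and all below those of 5 DPA, and replicate 3 of 5 DPA was the highest for each of these 4. The CTRL means of Lyz2 and Adgre1, at 110.5 and 16.7 CPM, lay between the days, and the CTRL libraries spread widely. The remaining members named by the rule, Ms4a7 (2.67) and Tyrobp (2.93), and Cd68 (3.18) and Csf1r (2.19) rose alike.

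Genes for the uptake and digestion of dead cells rose with them. In the list of 14 efferocytosis and phagocyte lipid genes 13 were called higher, or 8 without replicate 1 of 1 DPA, against 26.3% of all genes. The median was 1.605. Adjusted for the macrophage score 2 of the list were called higher, and for the stromal score 4 (3 and 4 at an unadjusted p under 0.05). The lipid receptor Trem2 was at 3.22, 2.88 and 3.58 CPM at 1 DPA and 23.8, 18.7 and 18.5 CPM at 5 DPA (log2 fold change 2.65 ± 0.31 (SE), adjusted p = 4.02e-05). Axl and Mertk, receptor kinases that bind dying cells through bridging proteins, were at 35.7, 37.9 and 39.1 CPM at 1 DPA and 139.9, 114 and 148 CPM at 5 DPA (log2 fold change 1.83 ± 0.25 (SE), adjusted p = 0.000197) and at 2.45, 3.22 and 2.28 CPM at 1 DPA and 8.51, 6.704 and 11.4 CPM at 5 DPA (log2 fold change 1.74 ± 0.33 (SE), adjusted p = 0.000912). All 3 were higher in every 5 DPA library than in any of 1 DPA, and their CTRL means of 5.197, 70.6 and 5.41 CPM lay between. Gpnmb, a glycoprotein of lipid-laden phagocytes, was at 0.578, 0.976 and 0.539 CPM at 1 DPA and 68.7, 20.2 and 29.9 CPM at 5 DPA (log2 fold change 5.81 ± 1.33 (SE), adjusted p = 0.00534), with replicate 1 of 5 DPA highest. Without that replicate its log2 fold change was 5.15. Apoe (1.47), Lgals3 (3.57), Cd36 (2.14) and Lpl (0.60) rose, and the cholesterol exporter Abca1 was not called (log2 fold change -0.30 ± 0.13 (SE), adjusted p = 0.0669).

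Of 16 lysosomal genes 11 rose and 2 fell, with a median of 0.48. The proteases Ctsb, at 196, 193 and 189 CPM at 1 DPA and 727, 587 and 719 CPM at 5 DPA (log2 fold change 1.81 ± 0.18 (SE), adjusted p = 1.3e-05), and Ctsd (log2 fold change 1.69 ± 0.18 (SE), adjusted p = 2.14e-05) rose more than 3-fold. Ctss (2.64), Ctsa (1.04) and the membrane protein Lamp2 (0.55) rose too. The proton pump subunits Atp6v0d1 (log2 fold change -0.35 ± 0.05 (SE), adjusted p = 0.000134) and Atp6v1h (-0.35) fell, the second without a call under the scaling without the 50 most abundant genes. Adjusted for the macrophage score, 6 lysosomal genes were called higher.

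Most of the antigen presentation and interferon genes rose. Of 12 antigen presentation genes 11 were called higher (median 2.02), or 8 without replicate 3 of 5 DPA or without replicate 1 or 2 of 1 DPA. Cd74, the invariant chain of class II molecules, was at 133, 115 and 165 CPM at 1 DPA and 444, 390.3 and 813 CPM at 5 DPA (log2 fold change 1.999 ± 0.46 (SE), adjusted p = 0.00505). The class II gene H2-Aa was at 42.2, 37.4 and 57.1 CPM at 1 DPA and 167, 149 and 302 CPM at 5 DPA (log2 fold change 2.18 ± 0.50 (SE), adjusted p = 0.00497). H2-Ab1 (2.22), H2-Eb1 (2.23), B2m (2.05) and the class I gene H2-D1 (1.18) rose similarly. Replicate 3 of 5 DPA was the highest 5 DPA library in all 6 of these genes, and no library of 5 DPA was as low as any of 1 DPA. Of 16 interferon response genes 13 were called higher (median 1.804), or 11 without replicate 3 of 5 DPA. Stat2 (log2 fold change 0.79 ± 0.13 (SE), adjusted p = 0.000351), Ifit1 (log2 fold change 1.76 ± 0.32 (SE), adjusted p = 0.00101), Psmb8 (1.57), Oas2 (2.03) and Oas1a (2.01) held in every such fit. Irf1 (-0.38), Irf9 (-0.08) and Usp18 (0.07) were not called. Adjusted for the macrophage score, edgeR called 0 antigen presentation and 0 interferon genes higher (0 and 0 at an unadjusted p under 0.05), and with the stromal score also 0 and 0 (0 and 2). No other tool was run with these covariates.

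The largest rises by the naming rule were immune genes at very low level on day 1. Ccr7, a receptor of migrating dendritic cells and lymphocytes, was at 0.0826, 0.0528 and 0.0634 CPM at 1 DPA and 1.71, 9.18 and 62.5 CPM at 5 DPA (log2 fold change 8.46 ± 2.85 (SE), adjusted p = 0.0311). The chemokine Ccl5 was at 0.2203, 0.238 and 0.0634 CPM at 1 DPA and 6.12, 20.4 and 93.8 CPM at 5 DPA (log2 fold change 7.78 ± 2.53 (SE), adjusted p = 0.027). Within 5 DPA the values spread more than 10-fold, with replicate 3 highest, and the CTRL means of 20.98 and 32.7 CPM rest on replicate 1 of CTRL, with 52.6, 10.3 and 0.0665 CPM of Ccr7 and 82.9, 14.9 and 0.1996 CPM of Ccl5 in the CTRL libraries, so that replicate 3 of CTRL was at the level of 1 DPA. They stand beside 5 DPA means of 24.4 and 40.1 CPM. The others were Cxcl9 (6.28), Gpnmb and Cxcl2 as given above, Cd4 (5.64), Il4i1 (5.14), Gbp2b (5.09), Ccl22 (5.06) and Samsn1 (4.896). Apart from Gpnmb and Cxcl2, these calls ended without any 1 of the 1 DPA libraries or without replicate 3 of 5 DPA, with adjusted p between 0.0503 and 0.284, and in limma-voom. Without replicate 3 of 5 DPA the log2 fold change was 6.2995 for Ccr7, 6.19 for Ccl5, 4.36 for Cxcl9, 4.305 for Cd4, 3.05 for Il4i1, 2.12 for Gbp2b, 4.196 for Ccl22 and 3.14 for Samsn1. Cxcl9 had 10 counts in replicate 1 of 1 DPA and 0 in the other libraries of that day, and without replicate 1 its fitted value was 11.32, which is no bound. Its call also ended without replicate 2 of 3 DPA, that of Il4i1 without replicate 2 of CTRL or replicate 1 of 3 DPA, and that of Gbp2b without replicate 1 or 2 of CTRL or any replicate of 3 DPA.

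Other blood cell markers were sparse. Of 6 monocyte and neutrophil genes tested, 4 were called higher and 1 lower (log2 fold change -2.67), against 26.3% and 29.8% of all genes. Adjusted for the macrophage or the stromal score, edgeR called 0 of these higher (0 and 0 at an unadjusted p under 0.05). Csf3r (log2 fold change 2.17 ± 0.47 (SE), adjusted p = 0.00235) and Ccr2 (log2 fold change 2.69 ± 0.53 (SE), adjusted p = 0.0016), receptors of neutrophils and of inflammatory monocytes, rose, with Ccr2 at 2.53, 1.93 and 1.3001 CPM at 1 DPA and 13.02, 10.7 and 13.7 CPM at 5 DPA. The neutrophil genes S100a8 and S100a9 had 14 and 6 counts in all over the 1 DPA libraries and 11 and 17 over those of 5 DPA, and were not tested. The T-cell genes Cd3e and Cd3g had 0 counts at 1 DPA and 0 and 2 at 5 DPA, and the B-cell gene Ms4a1 had 0 at 1 DPA and 17 at 5 DPA. Cd8a, which cytotoxic T cells and some dendritic cells carry, had 0 counts in every 1 DPA library and 1, 7 and 46 in those of 5 DPA, and was not called (adjusted p = 0.0518). The counts of Cd3e, Cd3g and Ms4a1 were thus at or near 0 on both days, while Cd4, which some mouse dendritic cells also express, and Il7r (log2 fold change 3.61 ± 0.84 (SE), adjusted p = 0.00447) rose. Cd79a, a B-cell receptor chain, was at 11.4, 10.7 and 9.51 CPM at 1 DPA and 2.93, 6.01 and 3.67 CPM at 5 DPA and fell (log2 fold change -1.33 ± 0.30 (SE), adjusted p = 0.00321).

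Collagens and other stromal genes were higher at 5 DPA. Of 14 stellate cell, fibroblast and pericyte markers 11 were called higher, with a median of 1.45. Col1a1, a chain of fibrillar collagen, was at 78.1, 92.7 and 111 CPM at 1 DPA and 1227, 644 and 601 CPM at 5 DPA (log2 fold change 3.13 ± 0.57 (SE), adjusted p = 0.00149). Col3a1 was at 143, 164 and 197 CPM at 1 DPA and 1530.1, 914 and 935 CPM at 5 DPA (log2 fold change 2.74 ± 0.51 (SE), adjusted p = 0.00162). The pericyte gene Rgs5 was at 152, 143 and 143 CPM at 1 DPA and 286, 235 and 259.9 CPM at 5 DPA (log2 fold change 0.83 ± 0.10 (SE), adjusted p = 3.52e-05). Replicate 1 of 5 DPA was highest in all 3, and no library of 5 DPA was as low as any of 1 DPA. Col1a2 (2.76), Sparc (1.41), Lum (2.19), Thy1 (1.4999) and Pdgfrb (1.07) rose too. The contractile genes Acta2 (log2 fold change 0.58 ± 0.82 (SE), adjusted p = 0.571), Tagln (log2 fold change 0.46 ± 0.76 (SE), adjusted p = 0.635) and Des (1.00) were not called, and Acta2 was at 21.4, 18.1 and 16.2 CPM at 1 DPA and 30.8, 20.8 and 31.97 CPM at 5 DPA against a CTRL mean of 64.4 CPM.

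Of 17 matrix and remodelling genes 13 were called higher, with a median of 2.07. Periostin, Postn, was at 23.98, 29.6 and 28.9 CPM at 1 DPA and 244, 130.4 and 155 CPM at 5 DPA (log2 fold change 2.68 ± 0.44 (SE), adjusted p = 0.000705). The basement membrane collagen Col4a1 was at 395, 370.2 and 342 CPM at 1 DPA and 1055, 716 and 677 CPM at 5 DPA (log2 fold change 1.15 ± 0.17 (SE), adjusted p = 0.000207). The cytokine Tgfb1 was at 11.9, 12.4 and 10.97 CPM at 1 DPA and 45.7, 33.3 and 46.98 CPM at 5 DPA (log2 fold change 1.84 ± 0.22 (SE), adjusted p = 5.25e-05). The metalloproteases Mmp2 (2.09) and Mmp14 (2.17), Col4a2 (1.07) and the crosslinking enzyme Loxl2 (0.73) rose, and none of these 7 genes overlapped between the days. Timp1 (log2 fold change 0.92 ± 0.48 (SE), adjusted p = 0.125), Fn1 (log2 fold change 1.15 ± 0.60 (SE), adjusted p = 0.136) and Ctgf (0.70) were not called.

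Endothelial genes rose by smaller steps, 10 of 12 with a median of 0.59. The VEGF receptor Kdr was at 130.5, 134 and 102 CPM at 1 DPA and 197, 173 and 177 CPM at 5 DPA (log2 fold change 0.58 ± 0.10 (SE), adjusted p = 0.000399), with a CTRL mean of 198 CPM. Flt1 (0.58), Tie1 (0.61) and Plvap (0.54) rose about as much. Vegfa, a ligand of Kdr and Flt1, was not called (log2 fold change -0.26 ± 0.12 (SE), adjusted p = 0.0954). Pecam1 was at 93.3, 93.6 and 98.5 CPM at 1 DPA and 136, 119 and 132 CPM at 5 DPA (log2 fold change 0.44 ± 0.16 (SE), adjusted p = 0.0381), without overlap, and its call ended without replicate 1, 2 or 3 of 1 DPA, replicate 2 or 3 of 3 DPA or replicate 1 or 3 of 5 DPA (adjusted p between 0.0505 and 0.0999). Among Schwann cell genes 6 of 8 rose, with a median of 1.02. Ngfr, the p75 neurotrophin receptor, was at 8.78, 10.2 and 12.1 CPM at 1 DPA and 70.2, 38.6 and 45.1 CPM at 5 DPA (log2 fold change 2.31 ± 0.22 (SE), adjusted p = 1.12e-05), and the glial factors Sox10 (0.99) and Foxd3 (1.15) and the filament Gfap (1.34) rose with it. In the fit adjusted for the macrophage score 1 stromal, 2 endothelial and 1 Schwann cell gene were called higher, and edgeR called 0 matrix genes higher (3 at an unadjusted p under 0.05).

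**Figure D5:**
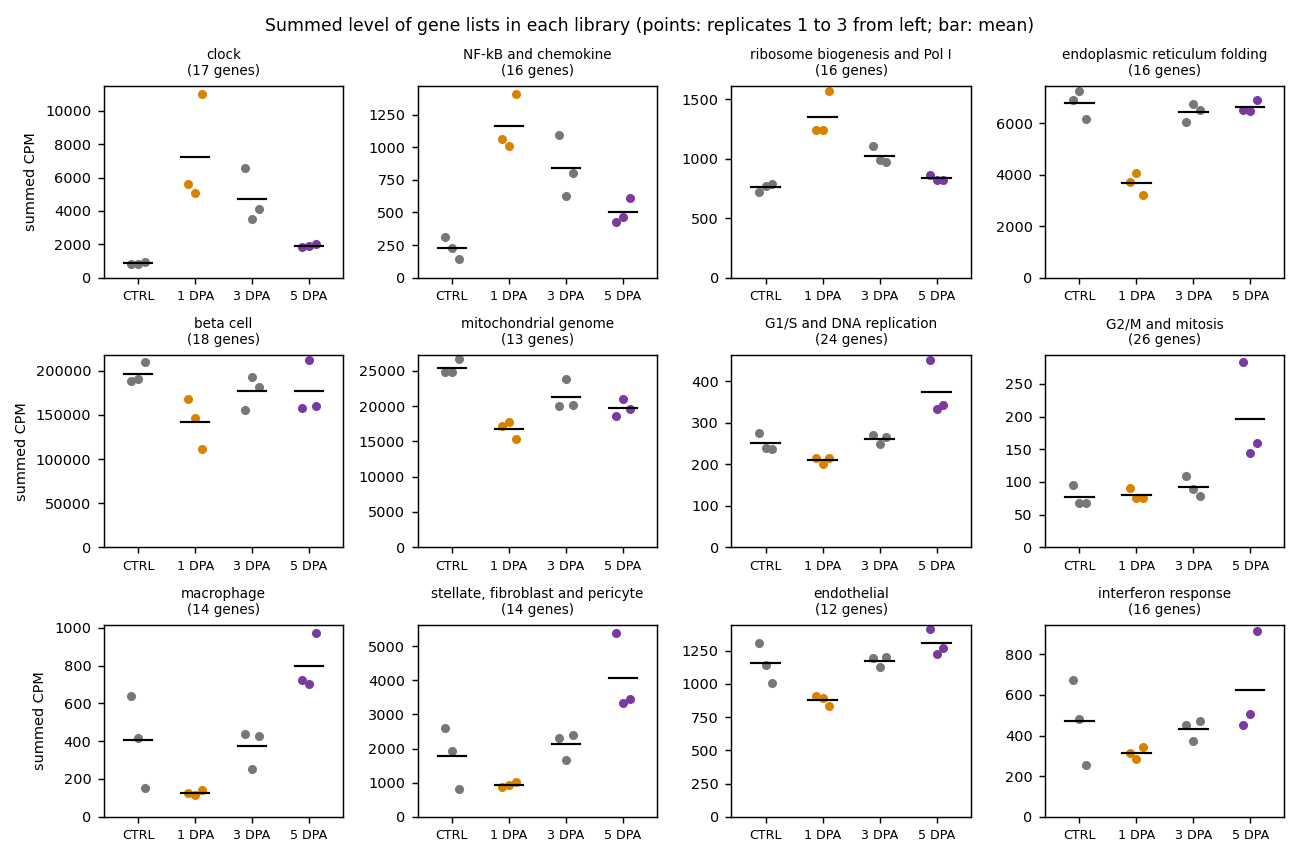
Summed level of 12 gene lists in each library (vertical axes, CPM from 0), with the replicates of CTRL, 1 DPA, 3 DPA and 5 DPA from left to right and a bar at each mean. The clock list is highest at 1 DPA with replicate 3 on top, endoplasmic reticulum folding is lowest at 1 DPA, and macrophage, stromal and mitosis sums are highest at 5 DPA.

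The BCL2 family had 5 of 12 genes called higher and 1 lower, where 26.3% and 29.8% of all genes were. Under the scaling without the 50 most abundant genes 0 were called lower. Bcl2, which protects against apoptosis, was at 8.23, 9.58 and 7.64 CPM at 1 DPA and 15.9, 12.1 and 13.2 CPM at 5 DPA (log2 fold change 0.69 ± 0.13 (SE), adjusted p = 0.00084). The effector Bak1 was at 13.4, 11.8 and 12.4 CPM at 1 DPA and 22.4, 19.4 and 24.1 CPM at 5 DPA (log2 fold change 0.81 ± 0.16 (SE), adjusted p = 0.00134). Bmf (0.98) and the myeloid-expressed Bcl2a1b (3.23) rose, and Mcl1 (0.06), Bcl2l1 (0.13) and Bcl2l11 (-0.13) were not called. Bcl2a1b belongs to a family of near-identical copies, so its counts are uncertain. Of the REG family and injury genes 1 of 11 was called, the iron-binding protein Lcn2 (log2 fold change 1.79 ± 0.48 (SE), adjusted p = 0.00831), with 0.771, 1.35 and 0.793 CPM at 1 DPA and 5.38, 1.69 and 3.03 CPM at 5 DPA. Reg1 was at 190.1, 90.2 and 39.8 CPM at 1 DPA and 72.7, 62.9 and 169 CPM at 5 DPA, and Reg2 at 0.193, 0.2903 and 1.11 CPM at 1 DPA and 6.33, 0.0397 and 0.1103 CPM at 5 DPA, both with overlapping days and no call (log2 fold change -0.07 ± 0.90 (SE), adjusted p = 0.95 and log2 fold change 2.08 ± 2.31 (SE), adjusted p = 0.47). Replicate 1 of 5 DPA stood far above the other libraries of that day for Reg2.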

How the data were processed

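RNA from mouse islets was extracted with RNeasy Mini columns and made into libraries with a QIAseq stranded mRNA kit, per the labels' protocols. The authors deposited raw counts per gene, named total counts per the file headers, on the mm10 build per the submitters' processing notes. Which aligner and counter were used, and whether counting used strand, is not given in the sources used here. The 12 count columns were used and 36 other per-sample columns were not. Depth per library is given in the report, and it limits the precision of genes with few counts.

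After filterByExpr with a minimum count of 10, 17294 of 48709 genes were tested with edgeR 4.0.16 in R 4.3.3. Scaling was by TMM, with the quasi-likelihood test of 5 DPA against 1 DPA in a fit of all 12 libraries (8 residual degrees of freedom). Calls were made at p under 0.05 after Benjamini-Hochberg adjustment over all genes tested. The SE is the log2 fold change divided by the square root of F. Counts were deposited as whole numbers, and replicates of a group differed by more than sampling noise (chi-square per degree of freedom 45.2 to 216), so none was a copy. The test was checked on simulated data in which few genes changed, which does not cover a change of most genes as called here.

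The 44 gene lists hold 655 members, of which 11 were not tested. Members and lists were chosen with earlier results of these data known, so no list gets a test of its own. Genes named by rule were the 10 largest rises and falls without overlap at an average of at least 1 on the log2 CPM scale, up to 4 called members per list and direction, and a fixed set. Other members were picked after their values were seen. Positions came from GENCODE M21 (17257 of the tested genes matched). Scores, with a prior count of 2, entered as covariates in alternative fits, and DESeq2 1.42.0 and limma 3.58.1 were alternatives. Some genes of the lists are counted but not reported by name here.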

Additional observations from a re-analysis of the deposited data

How the results depend on the processing

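The count of 9703 genes called between 5 DPA and 1 DPA stayed within 1.5 times under every alternative except 2 adjusted fits. It was 10043 in DESeq2, 9392 in limma-voom, 9756 with RLE scaling, 10044 with library sizes without the 50 most abundant genes, 9346 of 23615 genes with no filter on low counts, 9748 in a fit of only the 6 libraries compared and 9722 with the acinar score as a covariate. Leaving out 1 library at a time gave 8492 to 10202 calls, with 3826 to 5018 higher and 4506 to 5329 lower. The difference in the mitochondrial share of counts was 0.457 percentage points in place of 0.374 when the 50 most abundant other genes were left out of the total. That of the acinar share was between -2.003 and 0.229 percentage points when 1 library was left out.

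The replicate block, a term for the replicate number that the groups share, left 9259 calls (4281 higher and 4978 lower), and 94.3% of the calls remained with the same direction. Libraries of 1 DPA and 5 DPA with the same number did not deviate together (correlations of -0.134, -0.027 and -0.027 over genes), and none correlated best with its own number. The numbers thus showed no pairing here, and with so few libraries a day this check cannot exclude one.

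Adjustment for the macrophage score left 3185 calls (1094 higher, 2091 lower). Of the 9703 calls 27.6% remained with the same direction, and 1364 genes were called in the other direction. Adjustment for the stromal score left 4622 calls (1723 higher, 2899 lower), with 44.3% remaining and 317 in the other direction. The scores of the 2 days do not overlap, so the day and the scores cannot be told apart in these fits, and the cause was not tested. With a mean for each group in the fit, the effect of a score is set by its spread within groups. The macrophage scores were 4.79, 4.33 and 2.77 in CTRL, 2.52, 2.47 and 2.81 at 1 DPA and 4.97, 4.99 and 5.49 at 5 DPA. The stromal score also spread most in CTRL (6.66, 6.04 and 4.68). The adjusted values thus rest largely on CTRL, where replicate 3 was the lowest for both scores. Of the genes named in the report, the log2 fold change turned negative after adjustment for the macrophage score for Adgre1 -0.10, Apoe -0.075, Atf3 -0.95, B2m -0.88, Bak1 -0.076, Bcl2a1b -0.75, Bmf -0.0053, Cat -0.13, Ccl2 -0.35, Ccl22 -3.73, Ccl5 -4.34, Ccr7 -5.35, Cd36 -0.85, Cd4 -4.46, Cd74 -0.32, Csf3r -0.36, Ctss -0.27, Cxcl9 -5.24, Erbb2 -0.12, Gbp2b -5.52, Gdf15 -2.23, H2-Aa -0.28, H2-Ab1 -0.39, H2-D1 -0.51, H2-Eb1 -0.47, Ifit1 -0.027, Il4i1 -5.38, Il7r -1.25, Lyz2 -0.32, Mcl1 -0.64, Mmp2 -0.35, Oas1a -0.77, Oas2 -0.56, Pecam1 -0.45, Pmaip1 -1.31, Psmb8 -0.0047, Samsn1 -2.49, Tgfa -0.037 and Usp18 -1.21. It turned positive for Abcc8 0.16, Cd79a 0.022, Kcnh6 0.066, Kcnj11 0.032 and Mafa 0.27. After adjustment for the stromal score it turned negative for Acta2 -2.47, Atf3 -0.44, Ccl22 -0.21, Cd36 -0.032, Gdf15 -1.24, Pecam1 -0.22 and Tagln -2.45. Adgre1 and Lyz2 are members of the macrophage score, and Acta2 and Tagln of the stromal score. Their adjusted values are therefore partly fixed by how the scores were made. The log2 fold change of Ccne1, which was not called, turned to 0.63 without replicate 3 of 1 DPA. Of the genes given in the report as not called, some passed the threshold when 1 library was left out: Abca1, Psat1, Rpl18 and Sel1l without replicate 1 of 1 DPA, Rpl18 without replicate 2 of 1 DPA, Asns, Birc5, Ccne1, Krt7, Nusap1 and Pold1 without replicate 3 of 1 DPA, Cdkn1a and Phlda3 without replicate 2 of 3 DPA, Cd8a and Kif20a without replicate 1 of 5 DPA, Birc5, Cd8a, Nusap1 and Ppy without replicate 2 of 5 DPA, Irf1 and Neurog3 without replicate 3 of 5 DPA, Birc5, Cd8a, Cdc6, Des, Dusp6 and Nusap1 without replicate 1 of CTRL, Cdc6, Sel1l and Timp1 without replicate 2 of CTRL, and Cd8a, Ctgf, Des, Dusp6, Fn1, Phlda3 and Vegfa without replicate 3 of CTRL (adjusted p between 0.00682 and 0.0499). Under the scaling without the 50 most abundant genes 14 such genes passed, all in the direction of a rise: Bcl2l1, Birc5, Cd8a, Cdc6, Cdk4, Cdkn1a, Ctgf, Dph6, Dusp6, Neurog3, Nusap1, Pold1, Psat1 and Sel1l (adjusted p between 0.00354 and 0.049).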
